A study of Mus musculus with 11 samples.

Results

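The cortex (CTX) was set against all 3 ganglionic eminences (GEs) of the mouse embryonic forebrain for H3K27me3 at gene starts. For each of 21755 protein-coding genes on chromosomes 1 to 19 and X, coverage was the percent of a 4000-base window, 2 kb either side of the annotated 5′ end (GENCODE M21 on GRCm38/mm10), that lay under H3K27me3 peaks. A gene was called CTX-low where its coverage in every GE was at least 40 percentage points above that in CTX, and CTX-high where CTX was at least 40 points above every GE. The contrast of a CTX-low gene is its lowest GE coverage minus its CTX coverage, and that of a CTX-high gene is its CTX coverage minus its highest GE coverage. By this rule 41 genes were CTX-low, which is 0.188% of all genes, and 53 genes were CTX-high, which is 0.244%. These coverage values chose the genes, so all coverages and contrasts below are a description and carry no test.

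The series profiled H3K27me3 by CUT&Tag, in which an antibody guides a transposase to the modified nucleosomes so that the DNA around them is tagged and sequenced. The tissue came from wild-type C57BL/6J embryos, with 2 samples of the medial (MGE) and 3 samples each of the caudal (CGE) and lateral (LGE) ganglionic eminence and of CTX, dissected as somatosensory cortex. For this assay all 4 regions were dissected at E12.5. The protocol, written for several assays, also names E14.5 and speaks of combining nuclei of the regions, although each sample's label names just 1 region. Sample titles carry 2 replicate numbers per region, and the third sample of CGE, LGE and CTX repeats number 2, so these 3 regions may hold 2 biological replicates and 1 further library of the second. The samples of a region were merged before peaks were called, which leaves 1 list per region and no replicate error for any value below.

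H3K27me3 is laid down by Polycomb repressive complex 2 and is found at the CpG-rich starts of silent genes, above all of developmental regulators that a lineage does not use. The pallium, from which the cortex forms, produces glutamatergic neurons, and the subpallium, which holds the GEs, produces GABAergic neurons. In both, radial glia next to the ventricle divide and their progeny switch to neuronal genes as they leave the cell cycle. In bulk tissue, fewer cells with the mark and less of the mark per cell cannot be told apart.

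The lists held 15386 (MGE), 19199 (CGE), 16855 (LGE) and 18787 (CTX) peaks, and the used peaks covered 24.5, 32.9, 26.4 and 31.2 Mb. Set against the other 3 lists by the same rule, MGE had 25 low and 12 high genes, CGE had 1 and 53, and LGE had 6 and 7. When each list was trimmed to its strongest peaks so that all covered the same number of bases, CTX-low genes numbered 120 and CTX-high genes 50, and the same counts were 17 and 42 with MGE, 19 and 18 with CGE and 4 and 16 with LGE set apart. The CTX list thus had the most low genes with the lists as deposited and with equal covered bases, while its high genes equalled those of the CGE list in number as deposited.

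The region labels were set against defining genes. Of 9 pallial genes, 5 had more coverage in every GE than in CTX (*Emx1*, *Lhx2*, *Pax6*, *Neurog2* and *Tbr1*) and 0 had more in CTX than in every GE. Coverage of *Pax6*, a regulator of cortical radial glia, was 100% in MGE, 86.5% in CGE and 82.0% in LGE, against 42.5% in CTX, a difference of 39.6 points that placed it just outside the rule. *Neurog2*, a proneural factor of glutamatergic progenitors, was covered over 92.9%, 92.5%, 63.5% and 51.9% in the same order. Among 8 subpallial genes, *Gad2*, which encodes a GABA-synthesizing enzyme, was covered over 64.8%, 58.9% and 60.8% in MGE, CGE and LGE, while CTX reached 100%. *Gad1*, *Neurod6* and the microglial genes *Aif1* and *Csf1r* lacked any covered base in all 4 lists, and *Eomes* and *Nkx2-1* were covered over 100% in all 4, so these genes did not separate the regions. The neural crest gene *Sox10* lay between 53.7% and 54.1% and the endothelial gene *Cldn5* between 69.4% and 73.2% in all lists, and the meningeal gene *Col1a1* was at 100% in all 4.

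Transcription factors were the largest role class among the CTX-low genes. Roles were given to the members alone, so no share of transcription factors over all genes stands beside this count. Whether the class exceeds its share among genes that carry the mark was not tested. By known roles, assigned after the values were seen, 14 of the 41 encode transcription factors, 9 encode components of signalling, cilium or planar polarity pathways, 4 encode junction, adhesion or matrix proteins, 4 encode enzymes of metabolism or glycosylation, 5 act in trafficking, RNA processing, protein turnover or calcium sensing, and 5 have no role given here. In 24 of the 41, CTX had no covered base in the window. In 27 of the 41, every GE covered at least 50% of it. At these genes the 3 GEs had a median range of 7.85 points, and a range of 10 points or less in 25 of them. The rule itself limits this range, because every GE had to lie at least 40 points above CTX. No range over other genes is set beside it.

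**Figure D1:**
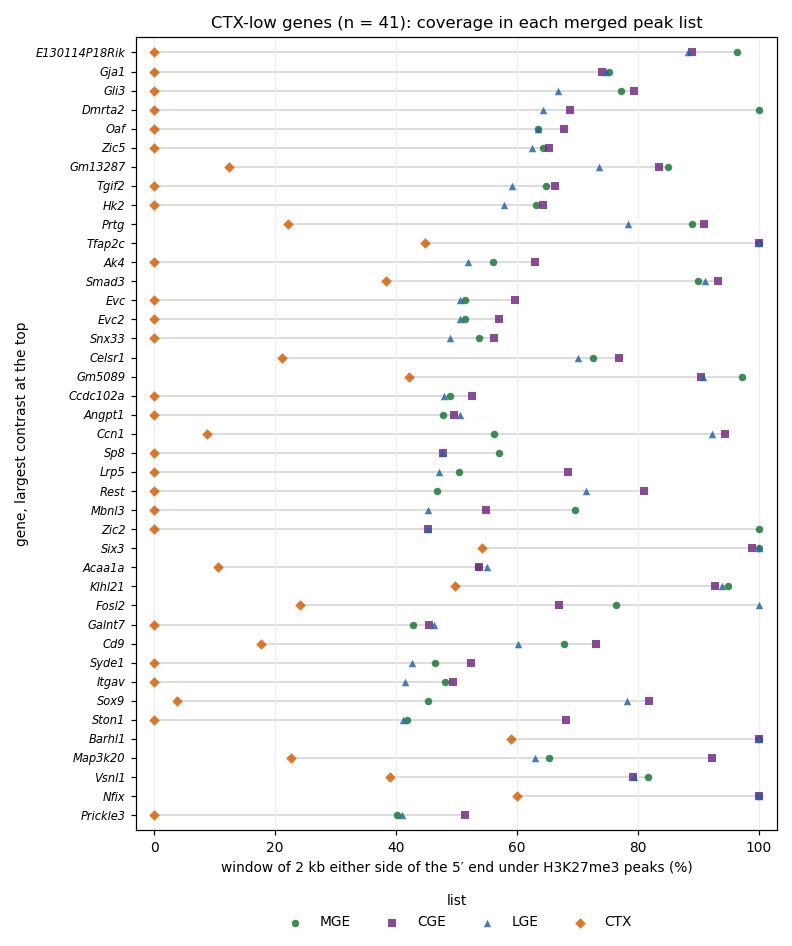
Coverage of the 41 CTX-low genes, 1 row per gene, ordered by contrast from 88.2 points at the top to 40.1 at the bottom. The horizontal axis gives the percent of the window under peaks, and each marker is 1 merged list. CTX lies at 0 for 24 genes, and the GE markers mostly cluster to the right.

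*Gli3*, a zinc finger effector of hedgehog signalling that patterns the dorsal telencephalon, was covered over 77.2% of its window (chr13:15461235-15465234) in MGE, 79.3% in CGE and 66.8% in LGE, and had no covered base in CTX. Each GE list had 1 peak across the *Gli3* start, and CTX had no peak within 12 kb. *Dmrta2*, a DM-domain factor of cortical patterning, was covered over 100%, 68.8% and 64.2% in MGE, CGE and LGE, while CTX had 0% (chr4:109976053-109980052). At *Dmrta2* all 4 lists had peaks further away, and the CTX list left free a stretch around the start. The MGE list had 1 peak across the whole window, and the CGE and LGE peaks over the start ended 684 and 497 bases downstream of it. *Zic5* and *Zic2*, zinc finger genes of the dorsal and midline forebrain whose starts lie 9758 bases apart on chromosome 14, were both without a covered base in CTX. *Zic5* was covered over 64.2%, 65.2% and 62.5%, and *Zic2* over 100%, 45.3% and 45.2%, in MGE, CGE and LGE. The predicted gene *Gm5089*, whose start lies 14562 bases from that of *Zic5*, was also CTX-low, so 3 of the 41 genes belong to this stretch of chromosome 14.

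The sequence just upstream of the start is shown for *Dmrta2* and for *Gja1*, the connexin 43 gene of radial glia and astrocytes, because these 250 bases lay wholly under peaks in all 3 GE lists and wholly outside peaks in CTX. They come from RefSeq on GRCm38.p6, plus strand for both genes, at chr4:109977775-109978024 (*Dmrta2*) and chr10:56377050-56377299 (*Gja1*), and capitals mark CpG dinucleotides, of which there are 19 and 6.
Dmrta2: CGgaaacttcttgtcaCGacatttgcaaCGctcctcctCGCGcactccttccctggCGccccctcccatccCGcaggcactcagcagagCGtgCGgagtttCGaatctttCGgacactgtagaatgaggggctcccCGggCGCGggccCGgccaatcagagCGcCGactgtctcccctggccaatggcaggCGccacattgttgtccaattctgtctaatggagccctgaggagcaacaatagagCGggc
Gja1: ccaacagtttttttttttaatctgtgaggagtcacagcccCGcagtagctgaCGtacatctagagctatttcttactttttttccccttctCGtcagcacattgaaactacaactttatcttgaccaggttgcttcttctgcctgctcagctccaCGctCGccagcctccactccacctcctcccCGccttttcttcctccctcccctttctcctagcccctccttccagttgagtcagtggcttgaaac

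*Gja1* had even GE values, at 75.2% in MGE, 74.0% in CGE and 74.7% in LGE, against 0% in CTX. Its peaks were weak in LGE, with a −log10 q of 2.44 against 6.62 in MGE and 13.2 in CGE, and with peaks limited to a q-value under 0.001 its contrast was no longer above 0. The largest contrast among CTX-low genes, 88.2 points, was at *E130114P18Rik*, an uncharacterised gene covered over 96.3%, 88.9% and 88.2% in the GEs and not in CTX. Its start lies 5344 bases from that of *Nfia*, a nuclear factor I gene whose own window had no covered base in any list.

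Other CTX-low transcription factors kept part of their mark in CTX. *Tfap2c*, a factor of cortical basal progenitors, was covered over 100% in every GE and 44.7% in CTX. In CTX its upstream 2 kb were covered over 89.3% and its downstream 2 kb over 0%. *Nfix*, a nuclear factor I gene, *Barhl1*, a homeobox gene, and *Six3*, a homeobox gene of the rostral forebrain, had GE coverages of 98.8% to 100% and CTX coverages of 59.9%, 59.0% and 54.2%. These 3 were the only CTX-low genes covered over 50% or more in CTX. *Smad3*, which transmits TGF-β signals, was covered over 89.9%, 93.2% and 91.0% in the GEs and 38.3% in CTX, and *Fosl2*, an AP-1 factor, over 76.3%, 66.9% and 100% against 24.1%.

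*Sox9*, a factor of neural stem cells and glia, was covered over 45.3% in MGE, 81.8% in CGE and 78.2% in LGE, against 3.83% in CTX. *Rest*, which represses neuronal genes outside neurons, was covered over 46.8%, 81.0% and 71.4% in the GEs and 0% in CTX. At both genes MGE was the lowest GE. The *Rest* peaks were among the weakest of the group, with a −log10 q of 1.85, 2.4 and 2.75 in MGE, CGE and LGE. *Tgif2*, a TALE homeobox repressor, was covered over 64.7%, 66.2% and 59.1% in the GEs and not in CTX. *Sp8*, a zinc finger gene used here as an LGE marker, was covered over 57.0%, 47.7% and 47.6% in MGE, CGE and LGE and had no covered base in CTX. LGE was thus covered at *Sp8* as much as CGE. Of the 14 transcription factors, 8 kept a contrast of at least 40 points with each of 4 other versions of the peak lists (peaks limited to a q-value under 0.001, gaps of less than 3 kb closed, equal numbers of peaks, and equal covered bases), namely *Gli3*, *Dmrta2*, *Zic5*, *Tgif2*, *Tfap2c*, *Sp8*, *Zic2* and *Fosl2*.

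**Figure D2:**
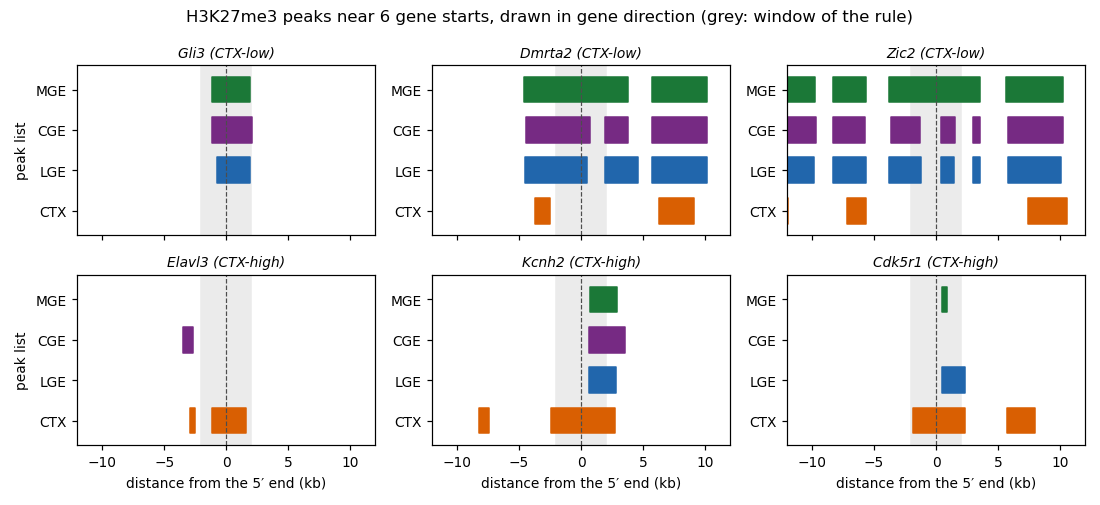
H3K27me3 peaks of the 4 lists around 3 CTX-low genes (top) and 3 CTX-high genes (bottom). The horizontal axis is the distance from the annotated 5′ end in kb, drawn in the direction of transcription, bars are peaks, and grey is the 2 kb either side that the rule used. The start of *Gli3* is under a peak in the 3 GE lists and that of *Elavl3* in the CTX list alone, whereas *Kcnh2* and *Cdk5r1* have GE peaks that begin downstream of the start.

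Among signalling genes, *Celsr1*, an adhesion receptor of planar cell polarity, was covered over 72.6% in MGE, 76.9% in CGE and 70% in LGE, against 21.2% in CTX. *Lrp5*, a Wnt co-receptor, had values of 50.4%, 68.4% and 47.1% in the GEs and 0% in CTX, and *Prickle3*, a cytoplasmic polarity protein, had 40.1%, 51.4% and 41.0% against 0%. The peaks at *Lrp5* were weak in LGE (−log10 q of 1.93), and those at *Prickle3* in MGE (2.84). These were the 3 CTX-low genes of the Wnt and planar polarity list, 3.53% of its 85 genes. Outside the rule, *Apcdd1*, a Wnt inhibitor, was at 52.1%, 64.9% and 49.9% in the GEs and 11.5% in CTX, and *Lef1*, a nuclear effector of Wnt signalling, was at 65.7%, 64.5%, 53.2% and 22.2%; both were picked after the values were seen. *Vangl2*, another polarity gene picked in the same way, went in the other direction, at 19.6%, 9.25% and 0% in the GEs and 36.5% in CTX. Over the whole list the median of the mean GE coverage minus the CTX coverage was 0.408 points, against 0 over all genes.

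In the hedgehog list *Gli3* was CTX-low, which is 1 of 19 genes or 5.26%. *Gli2*, the related factor, missed the rule at 100% in MGE, 48.0% in CGE and 38.7% in LGE, against 0% in CTX, and *Boc*, a hedgehog co-receptor, had 94.8%, 38.6%, 30.1% and 0%. The ligand gene *Shh* was at 71.2%, 73.2%, 39.1% and 73.5% in the same order, and the target gene *Gli1* was at 62.1% to 67.0% in all 4 lists. These 4 genes of the list were likewise picked after the values were seen. *Evc* and *Evc2*, which act in hedgehog signalling at the primary cilium but were not in the list, have starts 1605 bases apart on opposite strands and their windows overlap. *Evc* was covered over 51.3%, 59.7% and 50.5% in the GEs, *Evc2* over 51.3%, 57.0% and 50.5%, and neither had a covered base in CTX. In LGE the peak at both genes was weak (−log10 q of 2.36), and both contrasts were 0 with a q-value under 0.001. *Evc* and *Evc2* count as 1 locus, so the 41 CTX-low genes are 40 loci.

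*Angpt1*, the ligand of an endothelial tyrosine kinase receptor, was covered over 47.8%, 49.5% and 50.6% in the GEs and 0% in CTX, and was 1 of 74 genes (1.35%) of the list of receptor tyrosine kinases and their ligands. *Smad3* was 1 of 76 genes (1.32%) of the BMP and TGF-β list. *Map3k20*, a stress-activated kinase, had 65.2%, 92.3% and 63% in the GEs and 22.6% in CTX, and *Prtg*, an immunoglobulin family receptor of the early neural tube, had 89.0%, 90.9%, 78.3% and 22.1%. The junction and adhesion genes other than *Gja1* were *Ccn1*, *Cd9* and *Itgav*, with contrasts of 47.6, 42.6 and 41.5 points. *Itgav*, the αV integrin subunit, was covered over 48.1%, 49.4% and 41.5% in the GEs and not in CTX. *Ccn1*, a matricellular protein gene, and *Cd9*, a tetraspanin gene, kept 8.65% and 17.6% in CTX. *Hk2*, a hexokinase of glycolysis, led the metabolic genes with 63.1%, 64.3% and 57.9% in the GEs and 0% in CTX, and *Ak4*, a mitochondrial adenylate kinase, had 56%, 63%, 51.8% and 0%. The *Hk2* peak was weak in LGE (−log10 q of 2.68), and the *Hk2* contrast was 0 with a q-value under 0.001. *Oaf*, for which no role is given, stood at 63.5%, 67.7% and 63.4% in the GEs and 0% in CTX.

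By known roles, assigned to the CTX-high genes after their values were seen, 6 of the 53 encode proteins of the neuronal cytoskeleton and of polarity, 10 act in excitability, synapses and neuronal signalling, 7 regulate transcription or RNA, 5 are ubiquitin ligases, autophagy factors or chaperones, 4 encode matrix and adhesion proteins, 6 act in metabolism and transport, 5 are signalling adaptors or small GTPases, and 10 have another or no given role. Several lists on these themes held no CTX-high gene. The cytoskeleton and motor list held 0 among 232 genes, and its 1 member, *Map3k20*, was CTX-low. The synapse and vesicle list held 0 CTX-high genes among 100. The list of sodium, calcium, chloride and other ion channels held 0 among 125, and that of transmitter synthesis and transport 0 among 34. In 29 of the 53 no GE list had a covered base in the window, and CTX covered at least 50% of it in 35. Of the 7 regulators, *Elavl3*, *Trim71* and *Mycl* kept at least 40 points with each of the 4 other versions of the lists.

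**Figure D3:**
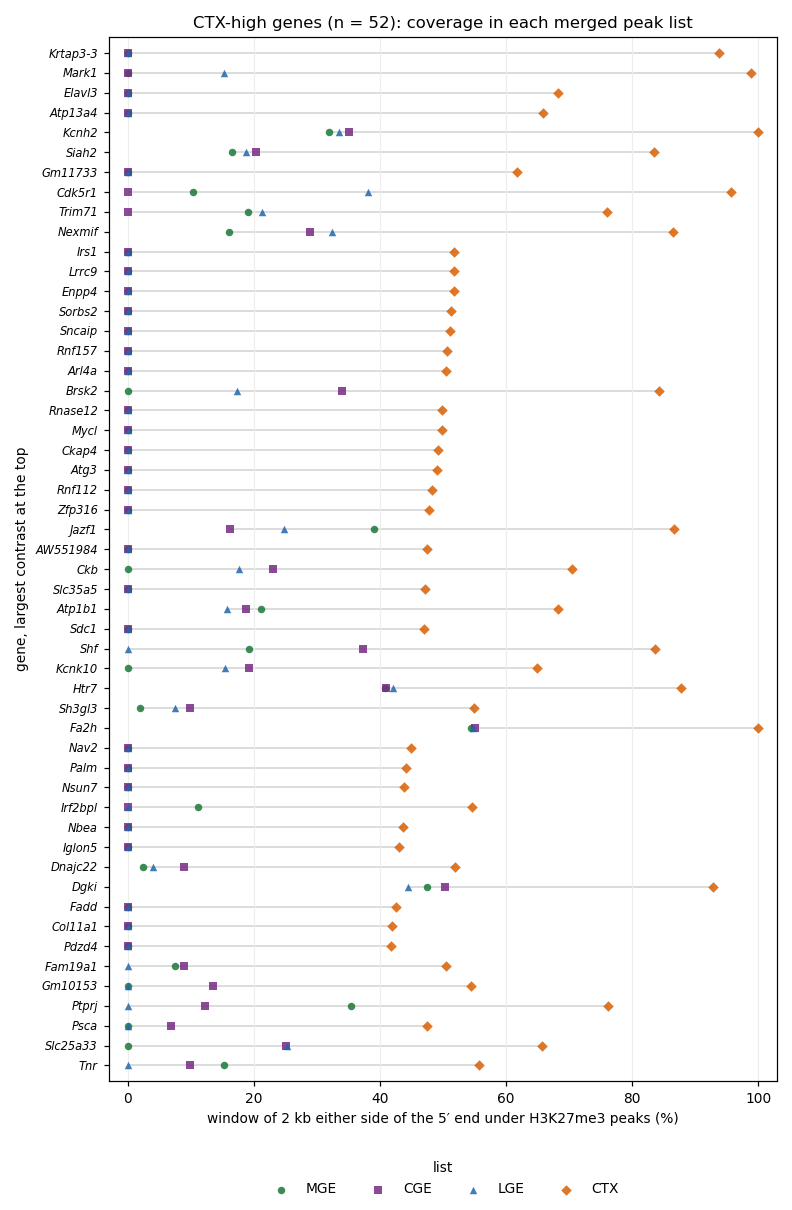
Coverage of 52 of the 53 CTX-high genes, 1 row per gene, ordered by contrast from 93.8 points at the top to 40.4 at the bottom. The horizontal axis gives the percent of the window under peaks, and each marker is 1 merged list, with the GE markers drawn over each other where all are at 0. CTX is the rightmost marker in each row, and 28 of the genes shown have all 3 GEs at 0.

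*Elavl3*, an RNA-binding protein gene of postmitotic neurons, had no covered base in MGE, CGE or LGE and was covered over 68.3% in CTX (chr9:22050024-22054023). *Mark1*, a kinase of microtubule-associated proteins, was covered over 0% in MGE, 0% in CGE and 15.3% in LGE, against 98.9% in CTX (chr1:184997571-185001570). *Cdk5r1*, which encodes the neuronal activator p35 of the kinase Cdk5, had 10.4%, 0%, 38.1% and 95.7% (chr11:80475023-80479022). LGE was the highest GE at both *Mark1* and *Cdk5r1*. *Brsk2*, a kinase of neuronal polarity, was covered over 0%, 34.0%, 17.4% and 84.2%. Its contrast was 50.3 points as deposited and went to -6.30 when peaks less than 3 kb apart were joined.

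The 250 bases upstream of the start are shown for *Elavl3* and *Brsk2*, and for the keratin-associated gene *Krtap3-3*, since they lay wholly under a peak in CTX and wholly outside peaks in the GEs, and since they differ in CpG content. They come from RefSeq on GRCm38.p6 at chr9:22052024-22052273 (*Elavl3*, minus strand), chr7:141949501-141949750 (*Brsk2*, plus strand) and chr11:99550864-99551113 (*Krtap3-3*, minus strand), each written 5′ to 3′ along the gene, and capitals mark the 20, 22 and 2 CpG dinucleotides.
Elavl3: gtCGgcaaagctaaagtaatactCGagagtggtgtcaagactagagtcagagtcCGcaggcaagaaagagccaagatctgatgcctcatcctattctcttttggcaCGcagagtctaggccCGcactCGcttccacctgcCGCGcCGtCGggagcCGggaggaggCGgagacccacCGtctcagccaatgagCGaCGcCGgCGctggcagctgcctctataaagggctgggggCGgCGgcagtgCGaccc
Brsk2: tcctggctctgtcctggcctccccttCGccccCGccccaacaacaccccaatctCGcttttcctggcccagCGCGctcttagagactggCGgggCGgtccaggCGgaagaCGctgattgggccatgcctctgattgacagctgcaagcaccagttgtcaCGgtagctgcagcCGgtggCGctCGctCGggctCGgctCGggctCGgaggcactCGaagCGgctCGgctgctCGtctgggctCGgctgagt
Krtap3-3: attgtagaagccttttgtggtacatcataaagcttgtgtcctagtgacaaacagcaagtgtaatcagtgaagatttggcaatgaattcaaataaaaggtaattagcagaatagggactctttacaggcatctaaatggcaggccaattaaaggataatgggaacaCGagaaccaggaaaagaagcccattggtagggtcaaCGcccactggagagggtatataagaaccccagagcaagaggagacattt

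*Krtap3-3*, which encodes a hair keratin-associated protein, had the largest contrast, with 0% in every GE and 93.8% in CTX. None of the 4 other genes with starts within 20 kb had a peak on its window in any of the lists. It was 1 of the 147 genes (0.68%) in the list of keratins and keratin-associated proteins. *Nexmif*, an X-linked gene of neurite extension, was covered over 16.1%, 29.0% and 32.4% in the GEs and 86.5% in CTX. *Nav2*, a neuron navigator gene, and *Palm*, which encodes the membrane protein paralemmin, were at 0% in the GEs and at 44.9% and 44.2% in CTX. The −log10 q of their CTX peaks was 2.61 and 1.72, and neither kept its contrast with a q-value under 0.001.

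Among genes of excitability and synapses, *Kcnh2*, which encodes an ether-à-go-go-related potassium channel, was covered over 32.0% in MGE, 35.1% in CGE and 33.5% in LGE, against 100% in CTX (chr5:24349605-24353604). The GE peaks began downstream of the *Kcnh2* start, and the CTX peak ran across it. *Kcnk10*, a tandem-pore potassium channel gene, had 0%, 19.2%, 15.5% and 64.9%. They were 2 of the 96 genes (2.08%) of the potassium channel list, in which the median of the mean GE coverage minus the CTX coverage was -0.562 points; 52 genes had a GE mean below CTX and 25 above it. *Kcnn2*, a calcium-activated potassium channel gene picked after the values were seen, missed the rule at 15%, 0%, 13.0% and 54.5%. *Htr7*, a serotonin receptor gene, was covered over 40.8%, 41.0% and 42.1% in the GEs and 87.7% in CTX, and was 1 of 178 neurotransmitter receptor genes (0.562%). *Dgki*, a diacylglycerol kinase gene, had 47.5%, 50.4%, 44.4% and 92.9%. At *Htr7* and *Dgki* the peaks were strong in every list, with a −log10 q of 24.9, 65.5, 43.0 and 48.8 at *Htr7* and of 9.93, 20, 15 and 43.8 at *Dgki* in MGE, CGE, LGE and CTX.

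*Atp1b1*, a subunit of the sodium pump, was covered over 21.1%, 18.8% and 15.8% in the GEs and 68.2% in CTX. *Sh3gl3*, an endophilin gene, had 2.00%, 9.90%, 7.5% and 55.0%. *Nbea*, a neuronal scaffold protein gene, was at 0% in the GEs and 43.6% in CTX, and its CTX peak had a −log10 q of 1.46. *Sncaip*, which encodes the synuclein-binding protein synphilin, and *Iglon5*, a neuronal adhesion gene, were also at 0% in the GEs, and at 51.1% and 43.1% in CTX. *Sncaip*, *Iglon5*, *Kcnh2*, *Kcnk10*, *Htr7*, *Sh3gl3* and *Dgki* kept at least 40 points with each of the 4 other versions of the lists, which is 7 of the 10 genes in the group, against 2 of the 6 cytoskeletal genes, *Mark1* and *Cdk5r1*.

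Of the regulators, *Trim71*, a ubiquitin ligase and RNA-binding repressor of early embryos, was covered over 19.1%, 0% and 21.3% in the GEs and 76.0% in CTX. *Elavl3* and *Trim71* were 2 of the 46 genes (4.35%) in the list of RNA-binding, pluripotency and germline genes. In that list 20 genes had a GE mean below CTX and 6 above it. *Mycl*, a Myc family gene, had 0% and 49.8%, and was 1 of 82 genes (1.22%) of the bHLH list. *Zfp316*, 1 of 602 zinc finger genes (0.166%), had 0% and 47.8%, and its CTX peak had a −log10 q of 1.62. *Jazf1*, a zinc finger cofactor, had 39.1%, 16.2%, 24.8% and 86.7%. *Siah2*, a ubiquitin ligase gene, was covered over 16.5%, 20.3% and 18.7% in the GEs and 83.4% in CTX, but its CTX peak was weak (−log10 q of 1.63) and its contrast was -20.3 points with a q-value under 0.001.

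The remaining CTX-high genes were mixed. *Tnr*, *Col11a1* and *Sdc1*, which encode tenascin-R, a fibrillar collagen chain and a heparan sulfate proteoglycan, were 3 of the 209 extracellular matrix genes (1.44%), with CTX coverages of 55.7%, 42.0% and 47.0%. *Col11a1* and *Sdc1* had no covered base in a GE, and *Tnr* had 15.3%, 9.85% and 0%. *Ptprj*, a receptor phosphatase gene, had 35.5%, 12.2%, 0% and 76.2%. *Fa2h*, an enzyme of myelin lipid synthesis, was the only CTX-high gene with at least 50% in every GE, at 54.4%, 55.1% and 54.8% against 100% in CTX. *Atg3*, an autophagy gene, and *Slc35a5*, a gene of the nucleotide sugar transporter family, start 79 bases apart on opposite strands, had no covered base in a GE, and were at 49.1% and 47.2% in CTX under the same peak. They count as 1 locus, so the 53 genes are 52 loci. *Slc25a33*, a mitochondrial carrier gene, had 0%, 25.1%, 25.2% and 65.7%, and *Atp13a4*, a cation-transporting ATPase gene, had 0% in each GE and 65.9% in CTX.

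A gene can meet the rule only if some list covers at least 40% of its window, as was so for 4225 of all 21755 genes. This held for 35 of 51 pallial and 32 of 42 subpallial transcription factors. It held for 162 of 202 homeobox and 118 of 602 zinc finger genes. The shares of the lists were not adjusted for this. Of 51 pallial transcription factors 3 were CTX-low (*Dmrta2*, *Nfix* and *Tfap2c*, 5.88%) and 0 were CTX-high. Of 42 subpallial transcription factors 2 were CTX-low (*Six3* and *Sp8*, 4.76%) and 0 were CTX-high. The homeobox list held 3 CTX-low genes among 202 (1.49%), the Sox list 1 among 19 (*Sox9*, 5.26%), the Dmrt list 1 among 11 (*Dmrta2*, 9.09%) and the zinc finger list 5 among 602 (*Gli3*, *Sp8*, *Tfap2c*, *Zic2* and *Zic5*, 0.831%). Among other lists, that of cell adhesion and junctions held 2 CTX-low genes (*Gja1* and *Itgav*, 1.14% of 176) and 1 CTX-high gene (*Ptprj*, 0.568%), that of solute carriers held 2 CTX-high genes (*Slc25a33* and *Slc35a5*, 0.471% of 425), and *Cdk5r1* was 1 of 80 genes (1.25%) of the cell cycle list. Predicted or uncharacterised genes numbered 3 on each side, which is 0.15% of 2003. The forkhead, FGF, Notch, axon guidance and cadherin lists held neither a CTX-low nor a CTX-high gene. The nearest Notch genes were *Lfng*, at 73.8%, 72.0% and 70% in the GEs and 32.7% in CTX, and *Notch3*, at 0%, 14.4%, 14.1% and 36.5%, both picked after the values were seen. Of 1420 olfactory and vomeronasal receptor genes 0 met the rule, and 1410 were free of peaks throughout.

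A list of 34 radial glia and progenitor genes and a list of 60 genes of postmitotic neurons were drawn up after the CTX-low and CTX-high genes had been seen and hold several of them. Their counts, and the medians and splits below, are therefore no independent evidence. The progenitor list held 5 CTX-low genes (*Celsr1*, *Gja1*, *Gli3*, *Rest* and *Sox9*) and 0 CTX-high genes. The neuronal list held 9 CTX-high genes (*Atp1b1*, *Brsk2*, *Cdk5r1*, *Elavl3*, *Mark1*, *Nav2*, *Nbea*, *Palm* and *Rnf157*) and 0 CTX-low genes. With the members included, the mean GE coverage minus the CTX coverage had a median of 2.60 points in the progenitor list, with 20 genes above 0 and 10 below. In the neuronal list the median was -10.2 points, with 8 above and 44 below. Over all protein-coding genes it was 0, with 3893 above and 4552 below. Other genes of the lists did not differ in this way. *Sox2* was at 61.6% to 66.0% and *Lrp2* at 94.8% to 95.5% in all lists, and *Crmp1*, a neuronal gene, was at 100% in the GEs and 89.6% in CTX.

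The covered bases of the members centred on the start, which the rule favours because its window is centred there. No profile of other genes is set beside it. Averaged over the 41 CTX-low genes, coverage in bins of 250 bases peaked at 93.8% in MGE, 94.0% in CGE and 90.7% in LGE within 750 bases downstream of the start, while CTX did not pass 18.8% in any bin. Over the 53 CTX-high genes the CTX mean peaked at 92.1% in the first 250 bases downstream, and no GE passed 13.2%. Between 5 and 10 kb from the start the means were 4.86% to 7.46% around CTX-low genes and 1.49% to 3.69% around CTX-high genes. The contrast was larger downstream than upstream of the start in 30 CTX-low and 33 CTX-high genes. Beyond the window, over the rest of the gene, CTX was below every GE in 15 of 40 CTX-low genes (37.5%, against 4.33% of 19449 genes with at least 1000 such bases), and above every GE in 21 of 48 CTX-high genes (43.8%, against 7.41%). These bases often lie under the same broad peaks, so they are no separate measure. *Sox9* went the other way, with 0%, 6.73% and 1.92% of its remaining body covered in MGE, CGE and LGE and 33.7% in CTX.

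**Figure D4:**
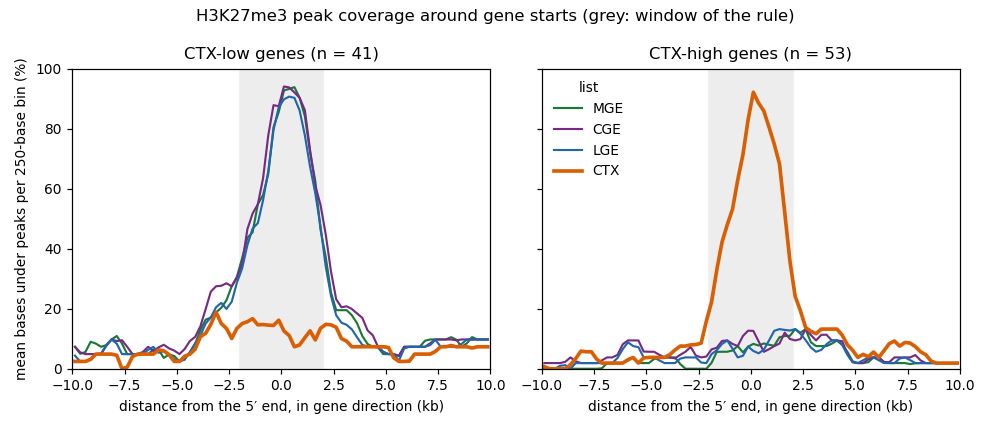
Mean coverage around the annotated 5′ end of the CTX-low genes (left) and CTX-high genes (right), with distance in kb on the horizontal axis and the percent of each 250-base bin under peaks on the vertical axis. Lines are the 4 lists, and grey marks the 2 kb either side that the rule used, so the separation inside it follows from the choice of genes. The GE lines reach 90.7% to 94.0% on the left, and the CTX line reaches 92.1% on the right.

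The −log10 q of a peak, which also depends on the number of reads in its list, was lower behind CTX-high than behind CTX-low genes. At CTX-low genes the strongest peak on the window had a median −log10 q of 6.36 in MGE, 14.1 in CGE and 5.83 in LGE. At CTX-high genes it had a median of 3.39 in CTX, below the median of 3.81 over all peaks of that list. Genes covered over at least 40% in all 4 lists, of which there were 2419, had medians of 19.4, 45.8, 33.3 and 33.4 in MGE, CGE, LGE and CTX. The CTX peak passed a q-value of 0.001 at 32 of the 53 CTX-high genes, and the GE peaks did so at 34, 40 and 30 of the 41 CTX-low genes. With each of the 4 other versions of the lists, 22 CTX-low and 27 CTX-high genes kept a contrast of at least 40 points, and 13 CTX-high genes, *Irs1*, *Siah2*, *Nbea* and *Palm* among them, kept it with only 1 of the 4. *Irs1*, an insulin receptor substrate gene, was at 0% in the GEs and 51.8% in CTX under a peak with a −log10 q of 1.57.

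**Figure D5:**
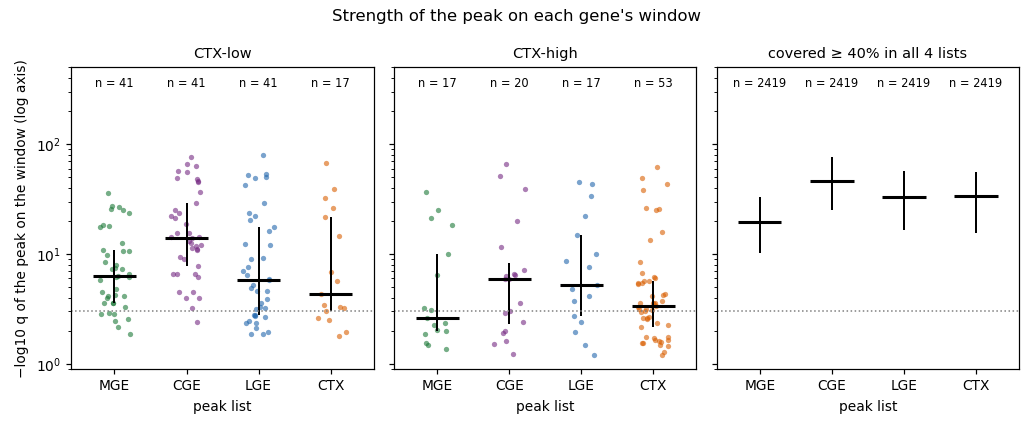
Strength of the strongest peak on each gene's window, as −log10 q on a log axis, for CTX-low genes, CTX-high genes and the 2419 genes covered over at least 40% in all 4 lists. Points are genes with a peak (their number stands above each column), thick bars are medians, thin bars are quartiles, and the dotted line is a q-value of 0.001. CTX peaks of CTX-high genes have a median of 3.39, and GE peaks of CTX-low genes have medians of 5.83 to 14.1.

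Sequence and length, which the rule did not use, are given here without a test. The observed over expected CpG ratio of the window had a median of 0.573 in CTX-low genes, 0.485 in CTX-high genes, 0.471 in the genes covered in all 4 lists and 0.373 in all genes. It was highest among CTX-low genes at *Rest* (0.815) and among CTX-high genes at *Trim71* (0.896), and it was 0.176 at *Krtap3-3* and 0.0689 at *Gm10153*. The genes had a median length of 22.0 kb (CTX-low) and 32.0 kb (CTX-high), against 17.4 kb over all genes, with *Nav2* (701 kb), *Nbea* (559 kb) and *Fam19a1* (544 kb), a gene of a secreted chemokine-like protein, as the longest. CTX-low genes lay on 16 chromosomes and CTX-high genes on 19, with at most 5 and 6 on any 1 of them. Apart from the *Evc* and *Atg3* pairs and the *Zic* stretch, no member had another member within 20 kb.

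Upstream sequences of 250 bases were at hand for 61 of the 94 genes, those with a RefSeq start within 200 bases of the annotated one. In them, 4 short motifs were counted on both strands as a description: TAATTA, a homeodomain core, CAGATG, a bHLH E-box, CAGCACC, part of the element bound by REST, and GACCACCC, the GLI site; none of the 4 contains another. TAATTA was in 0 of 25 CTX-low and 1 of 36 CTX-high sequences (*Krtap3-3*), against 3.61% of 12815 genes. CAGATG was in 3 of 25 (12%) and 4 of 36 (11.1%), against 12.2%. CAGCACC was in 4 of 25 (*Evc*, *Galnt7*, *Hk2* and *Syde1*, 16.0%) and 2 of 36 (*Sorbs2* and *Zfp316*, 5.56%), against 5.64%, and GACCACCC was in 0 of each, against 0.734%. These 250 bases held a median of 15 CpG dinucleotides in CTX-low, 19.5 in CTX-high and 11 in all genes.

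The threshold of 40 points cut through a continuous range. Just inside it on the CTX-low side were *Prickle3* (40.1 points), *Nfix* (40.1) and *Vsnl1*, a neuronal calcium sensor gene at 81.6%, 79.2%, 79.3% and 39.0% (40.2). Just outside were *Rcn1* (39.6), *Pax6* (39.6) and *Edn2* (38.8). On the CTX-high side *Tnr* (40.4), *Slc25a33* (40.5) and *Psca* (40.6) lay just inside, and *Gnb4* (39.9), *Dusp8* (39.9) and *Mpped1* (39.8) just outside. *Dusp8*, a phosphatase gene, was covered over 60.1%, 44.4% and 50.4% in the GEs and 100% in CTX.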

How the data were processed

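H3K27me3 CUT&Tag was performed on 11 samples, grouped by the region in their labels. The authors used Bowtie2 to align reads to GRCm38/mm10, discarded blacklisted regions and duplicates (Picard), merged the samples of each region with SAMtools, and called broad peaks with MACS. The versions, and any control for MACS, are not given in the sources used here. The deposited lists give each peak's position, its fold enrichment (a ratio to local background) and the −log10 of its q-value, as MACS wrote them. Merged calling weighs samples by their reads, and more reads can add peaks of low strength. The lists hold no read counts, so depth per window is unknown (library depths are stated in the study's methods, differ between regions and were not used) and no counting interval is given.

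Coverage was computed with Python 3.11.15, numpy 2.4.6 and pandas 2.3.3 over GENCODE M21 protein-coding genes on chromosomes 1 to 19 and X, after the script had been tested on simulated data. No peak lay past a chromosome end. 27 gene symbols occur more than 1 time and were kept apart by their identifiers. With 1 merged list per region no statistical test was possible, and members are set beside the share of all genes. Genes were named from the up to 15 per direction with the largest contrast, though not all of these are described. Members of 40 gene lists, the 3 genes either side of each threshold, region markers and members that share a window were also named. Further CTX-low and CTX-high genes, such as *Rest*, *Fosl2*, *Brsk2*, *Nbea*, *Palm* and *Fa2h*, were picked after their values and roles were seen. Genes outside the rule that were neither markers nor threshold genes were likewise picked after their values were seen. Of the CTX-high genes, 1 entered the counts and is not reported here. The rule, the members and the lists were chosen with earlier results of these data known. Sequences came from RefSeq (76 of 94 genes matched). Alternatives were 4 other versions of the lists, 2 thresholds, 3 other windows, the starts of all coding transcripts, the mean of the GEs, autosomes alone and overlapping windows counted as 1.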

Additional observations from a re-analysis of the deposited data

Results flagged for a closer look

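Peaks on the mitochondrial genome, which were outside all comparisons, numbered 2 (MGE), 3 (CGE), 4 (LGE) and 2 (CTX). They drew attention because they are signal in data that the comparison of gene starts does not use. CTX was thus within the range of the GEs, and no control samples were at hand to set these peaks against.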

How the results depend on the processing

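No paired analysis was possible because the samples of each region were merged into 1 list, and for the same reason no replicate could be left out. Against 41 CTX-low and 53 CTX-high genes, a q-value under 0.001 gave 93 and 84, joining peaks less than 3 kb apart 63 and 80, 30 points 110 and 140, 60 points 7 and 8, the upstream 2 kb alone 64 and 99, the downstream 2 kb alone 124 and 189, 1 kb either side 115 and 228, and the mean of the 3 GEs 93 and 95. Equal covered bases gave 120 CTX-low genes, and starts of any coding transcript gave 82 CTX-high genes. The counts were within 1.5 times under the other alternatives, which gave 39 to 60 CTX-low and 50 to 52 CTX-high genes. Of the original genes, a q-value under 0.001 kept 26 CTX-low and 32 CTX-high, and equal covered bases kept 39 and 33. The contrast changed sign with a q-value under 0.001 at *Shf* (-37.3), *Siah2* (-20.3) and *Gm13287* (-12.4), with equal numbers of peaks at *Shf* (-37.3), *Siah2* (-20.3) and *Irf2bpl* (-11.1), and with equal covered bases at *Tnr* (-15.3), *Shf* (-19.2), *Siah2* (-20.3), *Irf2bpl* (-11.1) and *Ckb* (-10.4). It did so with joined peaks at *Fam19a1* (-4.0) and *Brsk2* (-6.30), upstream at *Atp1b1* (-3.85), *Klhl21* (-4.10), *Fosl2* (-1.70), *Dgki* (-7.00), *Fam19a1* (-8.00) and *Cd9* (-4.35), and downstream at *Vsnl1* (-1.0). Trimming and filtering remove weak peaks by construction, and the cause of the other shifts was not tested. Library depths stated in the study's methods differ between regions, and the lists were not made at equal depth, so a window without a peak says only that no peak was called there.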

Other observations

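The rule was also applied to 11799 non-coding genes of the same annotation, of which 21 were CTX-low and 39 CTX-high, beside 41 and 53 of the 21755 protein-coding genes. Of these, 11 CTX-low and 32 CTX-high genes had windows that overlapped no protein-coding member, and those named here were picked after their values were seen. *Pax6os1*, antisense to *Pax6*, was covered over 100% in MGE, 58.5% in CGE and 52.2% in LGE, against 6.70% in CTX, so a window whose start lies 1430 bases from that of *Pax6* met the rule that *Pax6* itself missed. *Rmst*, a long non-coding RNA of neural tissue, had 57.2%, 73.6%, 56.1% and 0%, and *Sox6os*, antisense to *Sox6*, had 46.2%, 62.2%, 50.6% and 0%. *Gm43352*, antisense to *Lef1*, had 63.2%, 60.5%, 44.6% and 0%, and *Gm20703*, whose start lies 18882 bases from that of *Tgif1*, had 89.1%, 89.1%, 62.2% and 0%.

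On the CTX-high side, *Mir188* and *Mir532*, neighbouring microRNA genes on the X chromosome, were each at 0% in the GEs and 58.1% in CTX. Their windows overlap, as do those of some other non-coding genes, so the non-coding counts are of genes and not of loci. *Gm12121*, a long non-coding RNA gene on chromosome 11, had 0% in the GEs and 75.3% in CTX, and *Gm48287* had 0% in MGE, 0% in CGE and 32.6% in LGE, against 93.8% in CTX. *Gm8098*, whose start lies 711 bases from that of *Sptbn1*, had 10.3%, 19.6%, 32.9% and 88.9%. These values have no replicate error, and no explanation for them was tested.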
